A study of Mus musculus with 19 samples.

Results

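The potassium channel genes of the mouse, whose symbols begin with Kcn, were followed in ribosome-bound mRNA of spinal cord cholinergic neurons over the 24-h day. Members were taken by symbol, all Kcn rows except the antisense and overlapping-transcript rows Kcnd3os, Kcnmb4os1, Kcnmb4os2 and Kcnq1ot1, which gave 94 members among 50559 genes. The neurons came from ChAT-Cre;RiboTag fx/+ males on a C57BL/6J background, 10 weeks old and kept under a 12-h light and 12-h dark cycle. Each animal carried Cre under control of the choline acetyltransferase gene and 1 floxed RiboTag allele, so that ribosomes of Cre-expressing cells bore a hemagglutinin (HA) tag and could be immunoprecipitated. Spinal cords were collected at Zeitgeber time (ZT) 0, 4, 8, 12, 16 and 20, ZT0 being lights-on, from 3 animals per time point. The resulting 18 immunoprecipitates (IPs) were accompanied by 1 pooled input library of whole spinal cord RNA. Cre in all cholinergic cells covers motor neurons, autonomic neurons and cholinergic interneurons together, and in such bulk samples fewer cells of a type and less RNA per cell cannot be told apart.

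Potassium channels let potassium leave or enter the cell and thereby set the resting potential, end the action potential and control the rate of firing. Voltage-gated (Kv) channels open on depolarisation, inward rectifiers (Kcnj) pass current best near the resting potential, tandem-pore channels (Kcnk) carry leak current, and calcium-activated channels (Kcnma, Kcnn) follow calcium entry. Other members form no channel of their own, among them the Kv beta subunits (Kcnab), the KChIP proteins (Kcnip), the silent Kv modifiers (Kcnf, Kcng, Kcns, Kcnv) and the BK beta subunits (Kcnmb).

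Depth ranged from 6302150 to 22406844 counts per IP and was 15239792 counts in the input. Of the 94 members, 91 had at least 1 count in an IP and the other 3 (Kcnj1, Kcnj13 and Kcnk18) had none. A filter on low counts left 71 members for tests over time, and none of the 23 that failed it exceeded 1.11 CPM in any IP. The filter is met through the samples with the most counts, so the 71 are not a random draw from the family. Of the 7 cholinergic markers, 6 were enriched (a mean at least 2-fold above the input and all IPs above it), and Chat itself averaged 3.12-fold higher but lay below the input in 1 IP. All 7 oligodendrocyte markers and all 6 astrocyte markers were depleted, and none of them was at 0 in all IPs.

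Levels are given first, in CPM (counts scaled to the effective library size by TMM, on 1 scale for the 19 libraries), divided by exon length in kilobases (kb) wherever genes are compared with each other. The highest level per kb belonged to Kcng4, a silent subunit that modifies Kv2 channels, at 145 ± 22.9 CPM per kb (SD, n = 18 here and for the levels below). Kcnab2, a cytoplasmic beta subunit of Kv1 channels, had 141 ± 23.7 CPM per kb. Kcnj14 (Kir2.4), an inward rectifier known from motor nuclei, had 128 ± 12.8 CPM per kb. These were followed by Kcna1 (121 ± 6.87), Kcna2 (86.6 ± 15.9), Kcnh2 (77.1 ± 7.59) and Kcnk3 (58.98 ± 3.53 CPM per kb). The order is loose, since the ranges of Kcng4 and Kcnab2, Kcnab2 and Kcnj14, Kcnj14 and Kcna1, Kcna2 and Kcnh2, and Kcnh2 and Kcnk3 overlapped. Kcng4 exceeded Kcnab2 in 14 of 18 IPs, Kcnab2 exceeded Kcnj14 in 11 and Kcna2 exceeded Kcnh2 in 14. A clear step came after Kcnk3, which exceeded Kcnk9 (33.6 ± 2.52 CPM per kb) in 18 of 18 IPs without overlap.

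**Figure D1:**
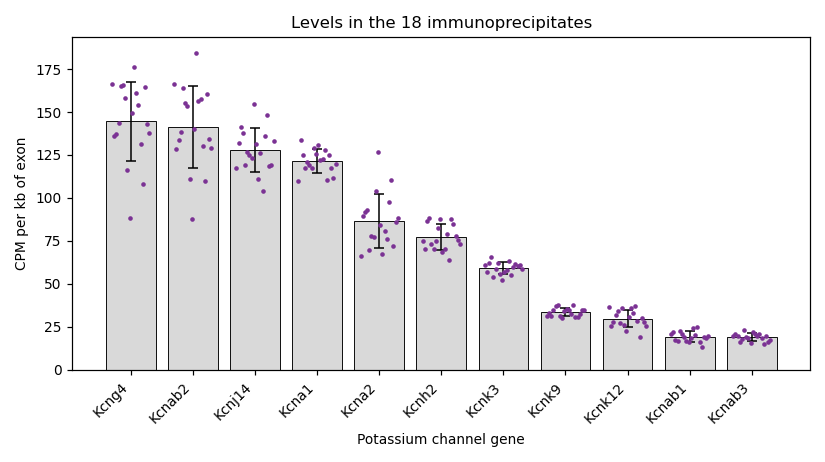
Level of 11 potassium channel genes of high level in CPM per kb of exon (y axis, linear from 0). Bars are means of 18 IPs, whiskers the SD and dots single IPs; Kcng4, Kcnab2 and Kcnj14 lead with overlapping dots, and Kcnk3 and Kcnk9 are separated by a step without overlap.

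Several of these genes belong to channels that sit at known sites of the neuron. Kcna1 and Kcna2 encode Kv1.1 and Kv1.2, which assemble in the axon beside the nodes of myelinated fibres, and Kcnab1 and Kcnab2 encode their beta subunits. The Kv3 family holds the fast channels that shorten the action potential, and Kcnc4 was at 14.8 ± 5.74, Kcnc1 at 11.5 ± 2.25 and Kcnc2 at 6.15 ± 0.914 CPM per kb. Kcnk3 and Kcnk9 encode TASK-1 and TASK-3, the acid-sensitive leak channels of motor neurons, and Kcnh2 encodes the ERG1 channel. Kcnq3, a subunit of M-current channels, lay lower at 2.11 ± 0.235 CPM per kb, as did Kcnma1, the pore of the BK channel, at 3.56 ± 0.423 CPM per kb.

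Comparison with the pooled input asked which members have a larger, or smaller, share in the ribosome-bound mRNA of the IPs than in RNA of the whole spinal cord. The input was not selected for ribosome binding, so in this ratio cell type and ribosome binding cannot be told apart. With 1 input library there is no test, and a gene was called enriched or depleted where the mean of the IPs differed from the input at least 2-fold and all 18 IPs lay on that side. Among the 77 members that could be compared, 10 (13%) were enriched, against 13.8% of all 17901 genes compared. Depleted members numbered 28 (36.4%), against 23% of all genes. The filter for this comparison can be met through a single library, the input included, so depletion is partly built in for some genes. Kcna3, called depleted, had 12 counts in the input and 3 over all IPs. The median log2 ratio of IP to input was -0.33 over the members and -0.08 over all genes compared.

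Kcnj14 stood apart among the enriched members. Its lowest, median and highest IP levels were 283, 344 and 421 CPM, against 27.7 CPM in the input (95% interval, 25.4 to 30.2), a 12.6-fold ratio. All 18 IPs exceeded the input by a wide margin. Both TASK genes were enriched, Kcnk3 with IP levels of 206, 236 and 261 CPM (lowest, median and highest) against 38.5 CPM in the input, 6.09-fold, and Kcnk9 3.34-fold. Kcng4 and Kcng1, which encode silent subunits of the same kind, were 5.46-fold and 4.66-fold higher than the input. Kcnmb4, the neuronal beta subunit of BK channels, was 3.94-fold higher at 31.9 ± 5.13 CPM. The antisense row Kcnmb4os2 had 1.49 ± 0.772 CPM, and as the strand setting of the counting is not given in the sources used here, reads of such a pair may not have been separated. The remaining enriched members were Kcnj12 (Kir2.2, 3.04-fold), Kcnh2 (3.00-fold), Kcnd1 (Kv4.1, 2.73-fold) and Kcna2 (2.44-fold).

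Among members with 100 or more input counts, depletion was strongest for inward rectifiers of glia. Kcnj10 encodes Kir4.1, the main potassium channel of astrocytes, and Kcnj16 encodes its partner Kir5.1. Kcnj10 had 775 CPM in the input (95% interval, 762 to 787) and 38.4 ± 5.68 CPM in the IPs, 20.2-fold lower. Kcnj16, with an input level of 55.7 CPM, averaged 2.44 ± 1.05 CPM after immunoprecipitation, 22.9-fold lower. For comparison, the summed astrocyte markers were 2874 CPM in the input and between 133 and 205 CPM in the IPs of ZT0, ZT8 and ZT16. Kcnk13 (THIK-1), known from microglia, was 13.3-fold lower. Other depleted members were Kcne1l (8.70-fold lower), Kcnip3 (6.83-fold), Kcnh6 (ERG2, 3.25-fold) and Kcns1 (Kv9.1, 2.74-fold). Among the genes followed over time below, Kcns3 was 2.63-fold, Kcnk1 2.47-fold and Kcnc1 (Kv3.1) 2.38-fold lower than the input. Kcnj6, the G protein-gated channel GIRK2, was 2.89-fold lower. Kcnab2 and Kcnq3 lay just outside the 2-fold rule, at log2 ratios of 0.95 and -0.94, with all 18 IPs on 1 side. Kcna1, in spite of its high level, was 1.27-fold higher than the input in the mean.

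**Figure D2:**
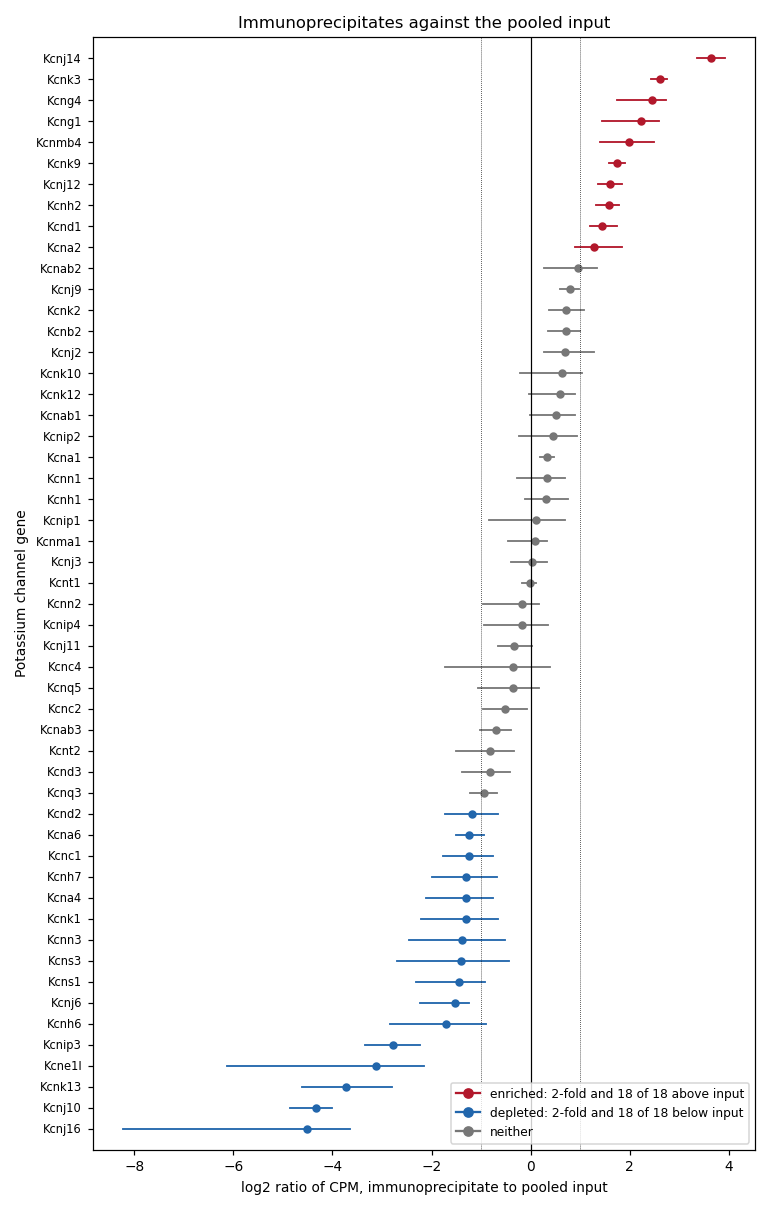
Log2 ratio of CPM in the IPs to the pooled input (x axis) for 52 potassium channel genes whose input count was 100 or more. Dots are the ratio of the mean of 18 IPs and lines run from the lowest to the highest IP (for Kcnk13 from the lowest above 0); Kcnj14 lies at the top at 3.65 and Kcnj16 and Kcnj10 at the bottom at -4.51 and -4.33.

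Within subfamilies, members that lie next to each other in the genome could differ widely (coordinates, RefSeq on GRCm38.p6). Kcnj9 and Kcnj10 are 11.9 kb apart on chromosome 1, and Kcnj9 (GIRK3) was 1.74-fold higher in the IPs than in the input while Kcnj10 was 20.2-fold lower. Kcnj16 and Kcnj2 are 38.2 kb apart on chromosome 11, and Kcnj2 (Kir2.1) was 1.62-fold higher where Kcnj16 was 22.9-fold lower. In the Kv1 cluster of chromosome 6, Kcna5, Kcna1 and Kcna6 had 0.664, 121 and 5.52 CPM per kb. On chromosome 3, Kcna3, Kcna2 and Kcna10 follow each other at distances of 52.8 and 68.1 kb. Kcna2 was the single one of them that passed the filter for tests over time.

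The time course asked which members change with the time of day. JTK_Cycle is the rank test for rhythms that the study used, run here with the settings given below. By it, 0 of the 71 members passed a false discovery rate (FDR) of 0.05 over all genes, against 0.0385% of all genes. The study reports a far larger share of rhythmic genes by its own run, and the reason for the gap was not tested. The lowest FDR values here were those of Kcns3 (0.085) and Kcnip1 (0.0944), followed by Kcnc4, Kcnk1 and Kcng4. Without adjustment over genes, 13 members (18.3%) had an adjusted p within the gene under 0.05, against 15.8% of all genes, and the best period was 20 h, the shortest offered, in all 13 and in 2244 of the 2466 genes of the whole table that passed. A 24-h cosinor fitted by edgeR called 5 members (7.04%, against 6.24% of all genes), and a test of any difference among the 6 time points called 8 (11.3%, against 6.74%). The cosinor members were Kcna2, with a fitted peak at ZT7.05, and Kcnc4, Kcng4, Kcnip1 and Kcnk1, with fitted peaks between ZT18.7 and ZT20. The measured means of Kcnc4, Kcng4, Kcnip1 and Kcnk1 were lower at ZT20 than at both ZT16 and ZT0. Kcnip1, for example, averaged 49.7, 40.5 and 48.9 CPM at ZT16, ZT20 and ZT0. The time-point test added Kcnc1, Kcnk12 and Kcns3.

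Differences between single time points were called mainly between ZT8, in the light phase, and ZT0 or ZT16. Between ZT8 and each of ZT4, ZT12 and ZT20, edgeR called 0 members and 0% of all genes at an FDR of 0.05. Comparing ZT8 with ZT0 by edgeR, 18 of 71 members (25.4%) differed at an FDR of 0.05, against 18% of all genes. The split was uneven, with 5 members (7.04%) higher at ZT8, against 8.95% of all genes, and 13 (18.3%) lower, against 9.02%. The median log2 difference was -0.25 over the members and -0.00 over all genes tested, and 19 of 71 members were above 0, against 7752 of 15572 genes. Comparing ZT16, in the dark phase, with ZT8, 18 members (25.4%) differed, against 16.9% of all genes, 13 higher at ZT16 (9.11% of all genes) and 5 lower (7.8%). Of these, 15 were called in both comparisons, all with opposite signs. The share of all genes called in both is not given here. The comparisons share the ZT8 animals, so a sign reversal is built in for a gene whose ZT8 level alone departs.

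These calls go with a difference between libraries that runs through the whole transcriptome. In a principal component analysis of 9214 genes, the leading component accounted for 52.8% of the variance, with scores of -22.3, -8.29 and -18.8 at ZT0, 5.03, 42.6 and 29.7 at ZT8 and -20.1, -27.9 and 2.81 at ZT16. With that score as a covariate, edgeR called 0 members in either comparison (3 and 5 at an unadjusted p under 0.05). The share of all genes in this fit is not given here. Because the score itself differs between time points, such a fit takes out part of any time difference too. Correction of each library for GC content and length gave 19 calls in each comparison, 16 of them shared with those reported, and an evener split of 8 higher and 11 lower at ZT8 than ZT0, and of 11 higher and 8 lower at ZT16 than ZT8. With it Kcnn2 lost its call in both comparisons, Kcnmb4 in the first and Kcnj10 in the second. The share of all genes called with this correction is not given here. The calls also lean on single animals. Without ZT8 replicate 2, the number of members called fell to 3 for ZT8 against ZT0 (Kcnip1, Kcnc4 and Kcnk12) and to 1 for ZT16 against ZT8 (Kcnip1), and without ZT16 replicate 2 the second count was also 1. Without ZT0 replicate 1, ZT0 replicate 3 or ZT8 replicate 3 the first count was 8, 11 and 11, and without ZT16 replicate 1 or ZT8 replicate 3 the second was 9. The share of all genes called without these libraries is not given here. Leaving out each of the 18 libraries in turn reversed no member that had been called by any test. Where 2 groups do not overlap, leaving out 1 animal cannot turn the sign, so the lack of reversals lends no support. Kcnip1 kept its call in both comparisons whichever library was left out.

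Most markers of the cholinergic neuron moved alongside. Of the 7 cholinergic markers, 4 were lower at ZT8 than at ZT0 (9.02% of all genes) and 5 higher at ZT16 than at ZT8 (9.11%). Chat had the largest log2 differences, -1.74 (SE 0.43, FDR 0.0115) and 1.77 (SE 0.43, FDR 0.0115). Mnx1 (0.10 and -0.08) and Prph (0.32 and -0.19) went the other way without a call. Their summed level was 4273 to 4730 CPM at ZT8, 4415 to 4837 CPM at ZT0 and 4675 to 5081 CPM at ZT16, so the groups overlapped. Prph, with a mean of 2987 CPM over the IPs, makes up most of that sum and moved against the called markers. The overlap of the sums therefore does not show that the called markers kept their level. Astrocyte markers summed to 168 to 191 CPM at ZT0, above the 133 to 165 CPM of ZT8, and the oligodendrocyte markers to 1761 to 2021, 1840 to 2239 and 1970 to 2919 CPM at ZT8, ZT0 and ZT16. The 4 inhibitory neuron markers, 2 of them called lower at ZT8 than at ZT0, had sums of 248 to 302 (ZT8), 325 to 347 (ZT0) and 293 to 338 CPM (ZT16), with no overlap between ZT0 and ZT8. The part of these shifts in the results on potassium channel genes was not tested.

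**Figure D3:**
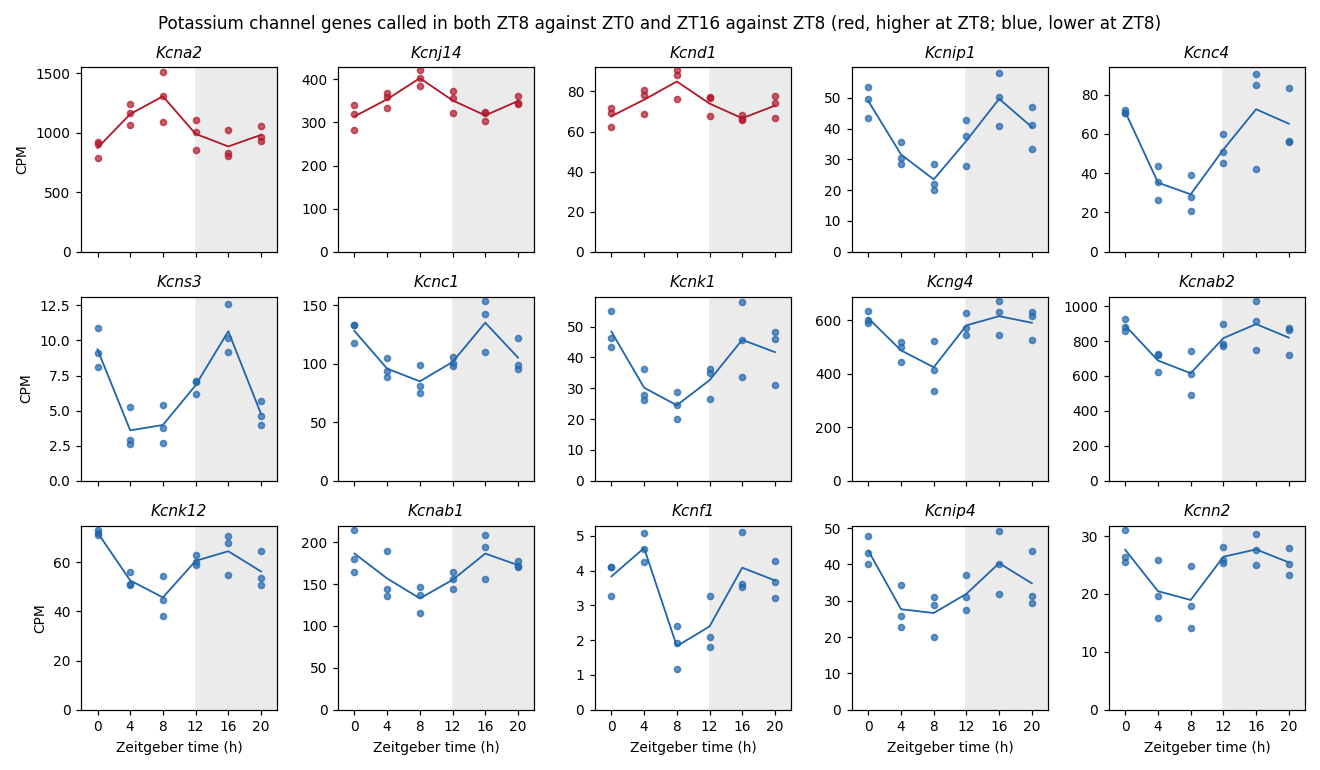
CPM (y axis, linear from 0) by Zeitgeber time in hours (x axis, dark phase shaded) for the 15 potassium channel genes called in both ZT8 against ZT0 and ZT16 against ZT8. Dots are single animals, 3 per time point, and lines join the means; the 3 red genes are highest at ZT8, and most of the 12 blue genes are lowest at ZT4 to ZT8.

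Among the pore-forming Kv genes, Kcna2 rose towards ZT8. Its levels were 789.9, 919 and 905 CPM at ZT0, 1091, 1512 and 1312 CPM at ZT8 and 826, 803 and 1022 CPM at ZT16. The 3 animals of ZT8 lay above all those of ZT0 and ZT16. The log2 difference was 0.59 (SE 0.12, FDR 0.00659) from ZT0 to ZT8 and -0.57 (SE 0.12, FDR 0.00823) from ZT8 to ZT16. Kcna1, its frequent partner in the channel, had 526, 562 and 612 CPM at ZT0 and 598, 599 and 597 CPM at ZT8, which overlapped, with a log2 difference of 0.09 (SE 0.09, FDR 0.518). Kcna6 (Kv1.6) had 30.4, 29.4 and 28.5 CPM at ZT0 and 38.3, 40.8 and 38.04 CPM at ZT8 without overlap, log2 0.42 (SE 0.12, FDR 0.0206), and its decrease to ZT16 did not pass the test, log2 -0.27 (SE 0.12, FDR 0.131).

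The Kv beta genes moved in the other direction from Kcna2. Kcnab2 had 929, 858 and 879 CPM at ZT0, 745, 489 and 613 CPM at ZT8 and 913, 1028 and 751 CPM at ZT16. The lowest of the 18 values was that of ZT8 replicate 2, and ZT8 overlapped neither of the other times. The log2 difference was -0.52 (SE 0.13, FDR 0.0129) from ZT0 to ZT8 and 0.53 (SE 0.13, FDR 0.0121) from ZT8 to ZT16. With the principal component score as covariate these became 0.0297 and -0.0049, neither called. Kcnab1 had 180.1, 164 and 215 CPM at ZT0, 147, 136 and 115 CPM at ZT8 and 195, 208 and 156 CPM at ZT16, and changed by -0.48 (SE 0.13, FDR 0.0188) and 0.48 (SE 0.13, FDR 0.0193) on the log2 scale, again without overlap. Kcnab3 did not pass the test in either comparison, log2 -0.21 (SE 0.14, FDR 0.336) and 0.11 (SE 0.14, FDR 0.643).

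Kv3 genes, which support rapid firing, did not all move together. Kcnc4 (Kv3.4) had 70.7, 70.6 and 72.3 CPM at ZT0, 38.8, 20.8 and 27.97 CPM at ZT8 and 84.96, 90.4 and 42.4 CPM at ZT16. The values at ZT8 were all below those of ZT0 and ZT16, though 1 animal of ZT16 lay close to the highest of ZT8. The log2 difference was -1.28 (SE 0.25, FDR 0.00585) and then 1.31 (SE 0.25, FDR 0.00697). Kcnc1 had 133, 118 and 133 CPM at ZT0, 98.8, 80.8 and 75.4 CPM at ZT8 and 142, 154 and 109.7 CPM at ZT16, without overlap, log2 -0.58 (SE 0.13, FDR 0.00803) and 0.66 (SE 0.13, FDR 0.00699). Kcnc2 (Kv3.2) went the other way, from 48.1, 59.5 and 53.7 CPM at ZT8 to 32.03, 37.5 and 44.97 CPM at ZT16, log2 -0.50 (SE 0.13, FDR 0.0129), and its rise from ZT0 did not pass, log2 0.33 (SE 0.13, FDR 0.0729).

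Kv4 channels carry A-type current and bind KChIP proteins. Between ZT8 and ZT0, 1 of 3 Kv4 genes and 2 of 4 KChIP genes were called, against 18% of all genes. Kcnd1 had 71.5, 62.4 and 69.03 CPM at ZT0, 76.3, 88.1 and 90.6 CPM at ZT8 and 68.2, 65.5 and 66.1 CPM at ZT16, so that ZT8 was highest without overlap, log2 0.34 (SE 0.10, FDR 0.029) and -0.36 (SE 0.10, FDR 0.0234). The KChIP gene Kcnip1 had 49.7, 43.4 and 53.6 CPM at ZT0, 28.6, 21.9 and 19.9 CPM at ZT8 and 50.3, 57.9 and 40.7 CPM at ZT16. Here ZT8 was lowest without overlap, log2 -1.05 (SE 0.18, FDR 0.00519) and 1.08 (SE 0.18, FDR 0.00476), the lowest FDR of any member in both comparisons. Kcnip1 overlaps Kcnmb1 in the genome, but Kcnmb1 averaged 0.0511 CPM in the IPs. Kcnip4 had 43.3, 40.2 and 47.7 CPM at ZT0, 28.8, 20.05 and 31.00 CPM at ZT8 and 39.98, 49.2 and 31.8 CPM at ZT16, again lowest at ZT8 without overlap, log2 -0.71 (SE 0.19, FDR 0.0174) and 0.59 (SE 0.19, FDR 0.0405). The other genes of these families passed neither test. For ZT8 against ZT0 the log2 difference was 0.36 (SE 0.16, FDR 0.121) for Kcnd2, -0.25 (SE 0.18, FDR 0.367) for Kcnd3, -0.03 (SE 0.20, FDR 0.941) for Kcnip2 and -0.08 (SE 0.24, FDR 0.85) for Kcnip3.

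Of the silent Kv modifiers, 3 of the 9 tested were lower at ZT8 than at ZT0 (9.02% of all genes). None was higher by edgeR (8.95% of all genes), also at an unadjusted p under 0.05 (2393 of 15572 genes). Kcng4 had 632, 601 and 588 CPM at ZT0, 523, 337 and 412 CPM at ZT8 and 629, 671 and 544 CPM at ZT16, without overlap, log2 -0.51 (SE 0.13, FDR 0.0117) and 0.53 (SE 0.13, FDR 0.0104). Kcns3 (Kv9.3) had 9.09, 8.12 and 10.9 CPM at ZT0, 5.43, 3.76 and 2.72 CPM at ZT8, 9.15, 12.6 and 10.2 CPM at ZT16 and 5.70, 4.62 and 3.95 CPM at ZT20. All values at ZT0 and ZT16 exceeded all those at ZT8 and ZT20, which overlapped each other. The log2 difference was -1.23 (SE 0.27, FDR 0.00768) and 1.42 (SE 0.27, FDR 0.00697), and Kcns3 was also the single member called between ZT4 and ZT16, log2 1.55 (SE 0.28, FDR 0.0341). Kcnf1 (Kv5.1) was near the limit of detection with 2.41, 1.91 and 1.17 CPM at ZT8 and 4.11, 4.11 and 3.28 CPM at ZT0, log2 -1.05 (SE 0.32, FDR 0.0277) and 1.15 (SE 0.32, FDR 0.0198).

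Leak and inward rectifier channels gave calls in both directions. The tandem-pore gene Kcnk1 (TWIK-1) had 55.2, 43.5 and 46.4 CPM at ZT0, 28.9, 19.9 and 24.6 CPM at ZT8 and 45.8, 57.8 and 33.5 CPM at ZT16, lowest at ZT8 without overlap, log2 -0.97 (SE 0.20, FDR 0.00661) and 0.90 (SE 0.20, FDR 0.00893). Kcnk12 (THIK-2) had 71.96, 70.98 and 73.1 CPM at ZT0, 54.3, 44.7 and 37.9 CPM at ZT8 and 67.9, 70.4 and 54.9 CPM at ZT16, with ZT8 again lowest without overlap, log2 -0.65 (SE 0.13, FDR 0.00593) and 0.49 (SE 0.13, FDR 0.0151). Kcnk2 (TREK-1), gated by stretch and lipids, was lower at ZT16 than at ZT8, with 26.6, 30.6 and 28.2 against 33.5, 38.8 and 42.9 CPM and no overlap, log2 -0.44 (SE 0.14, FDR 0.032). The 2 TASK genes did not pass in either comparison, Kcnk3 at log2 -0.01 (SE 0.09, FDR 0.941) and -0.03 (SE 0.09, FDR 0.857) and Kcnk9 at log2 -0.05 (SE 0.09, FDR 0.762) and 0.15 (SE 0.09, FDR 0.27).

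Kcnj14, the member most enriched over the input, was highest at ZT8. It had 319, 340.3 and 283 CPM at ZT0, 384, 421 and 404 CPM at ZT8 and 323, 302 and 324 CPM at ZT16. The 3 animals of ZT8 lay above those of both other times, log2 0.37 (SE 0.09, FDR 0.0106) and -0.36 (SE 0.09, FDR 0.0132). Kcnj2 was also higher at ZT8 than at ZT0, 16.6, 21.6 and 17.7 against 11.95, 12.1 and 14.6 CPM, log2 0.54 (SE 0.15, FDR 0.017). Its decrease from ZT8 to ZT16 did not pass the test, log2 -0.30 (SE 0.15, FDR 0.172). The glial channel gene Kcnj10, present at a level far below the input, was higher at ZT16 than at ZT8, log2 0.43 (SE 0.14, FDR 0.04), with 37.3, 48.2 and 46.7 against 38.6, 26.9 and 32.5 CPM and overlap between the groups. The summed astrocyte markers were 133 to 165 CPM at ZT8 and 165 to 205 CPM at ZT16, and their part in this difference was not tested.

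Of the calcium-activated channels, 1 of 4 Kcnn genes and 1 of 3 tested BK genes were called between ZT8 and ZT0, against 18% of all genes. Kcnn2 encodes SK2, which carries part of the afterhyperpolarisation, and was lower at ZT8, with 26.3, 25.5 and 30.95 CPM at ZT0, 24.9, 14.1 and 17.9 CPM at ZT8 and 25.04, 30.4 and 27.7 CPM at ZT16, log2 -0.54 (SE 0.18, FDR 0.0441) and 0.54 (SE 0.18, FDR 0.0435). Kcnmb4 was lower at ZT8 than at ZT0, 29.97, 21.3 and 30.9 against 37.5, 45.5 and 30.9 CPM, with 1 nearly equal value in both groups and log2 -0.46 (SE 0.15, FDR 0.0433). Kcnma1, the pore that Kcnmb4 modifies, passed neither test, log2 -0.13 (SE 0.14, FDR 0.559) and 0.05 (SE 0.14, FDR 0.847). For the ERG1 gene Kcnh2 the log2 differences were 0.29 (SE 0.10, FDR 0.0568) and -0.26 (SE 0.10, FDR 0.0961). The Kv2, Kv7, EAG/ERG/ELK, Slo2/Slo3 and Kcne classes, with 2, 4, 7, 3 and 2 tested members, had no call by edgeR in either comparison. At an unadjusted p under 0.05, 1 member of these classes (Kcnh2) differed between ZT8 and ZT0, against 4915 of 15572 genes. DESeq2 called 1 there (23.7% of all genes). Between ZT16 and ZT8 the number at that unadjusted p was 2, against 4824 of 15572 genes. Values that miss the threshold do not show equal levels.

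**Figure D4:**
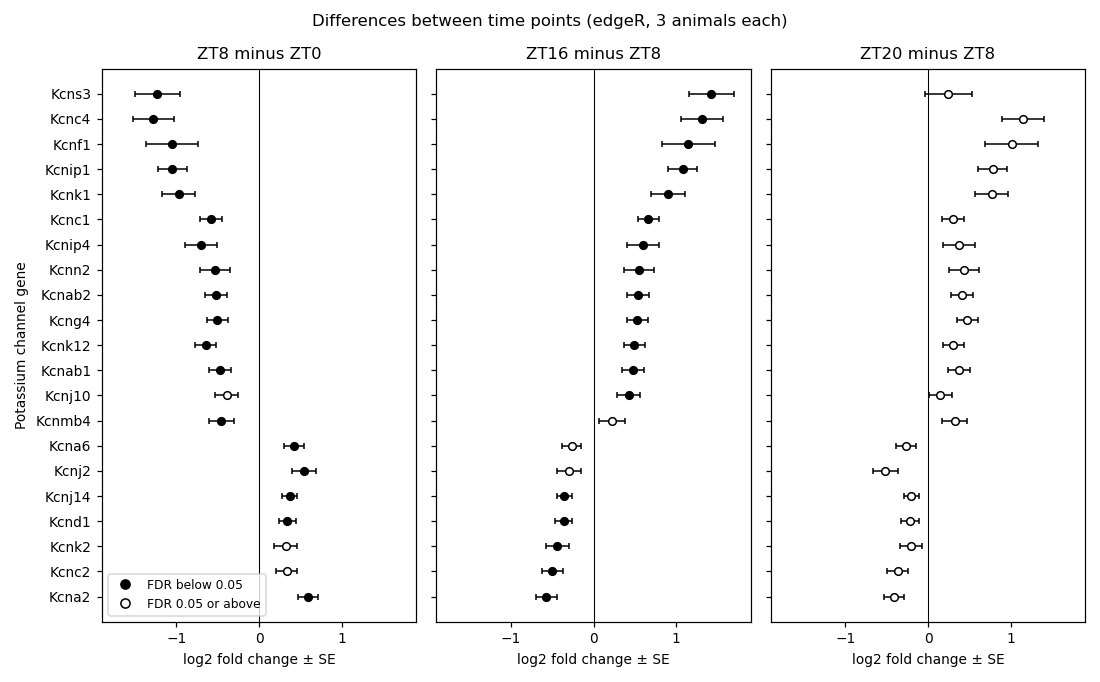
Log2 fold change with its SE (x axis) for the 21 potassium channel genes called by any test, in 3 comparisons between time points with 3 animals each. Filled dots have an FDR below 0.05 and open dots do not; of the panel ZT20 minus ZT8 no dot is filled, and the lowest FDR there is 0.0621.

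Across all 71 tested members, 29 had no overlap between the 3 values of ZT8 and the 3 of ZT0 (34.7% of all genes had none), 10 of them higher and 19 lower at ZT8. For ZT16 against ZT8 the number was 28, against 27.1% of all genes. For ZT20 against ZT8 it was 20, against 20.9% of all genes, and edgeR called 0 members (0% of all genes) at an FDR of 0.05. In that comparison 19 members had an unadjusted p under 0.05, against 22.3% of all genes, and DESeq2 called 8 of the 50 members to which it gave an adjusted p, against 10.1% of all genes. In total 21 members were called by at least 1 test over time and 50 of the tested members by none. The share of all genes called by at least 1 of these tests is not given here, so the count cannot be set against it.

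To show the regulatory sequence beside the expression, promoter windows of 300 bases around annotated starts were taken from RefSeq (GRCm38.p6) for 69 of the 94 members, and searched for the E-box CACGTG, the element bound by the clock factors CLOCK and BMAL1. The motif reads the same on both strands. It occurred in 6 of the 69 members (8.7%), against 2187 of 27025 genes with a window (8.09%). Among the members called by any test over time it occurred in 2 of 18 with a window, Kcnab1 and Kcnj2. A window with the motif, given in capitals, is printed first for each of these (Kcnab1 has it at 2 of its 3 starts), followed by those of Kcna2 and Kcnc4, which lie near each other on chromosome 3, moved in opposite directions at ZT8 and had no such motif in these windows.
Kcnab1 chr3:65108764-65109063 (plus strand): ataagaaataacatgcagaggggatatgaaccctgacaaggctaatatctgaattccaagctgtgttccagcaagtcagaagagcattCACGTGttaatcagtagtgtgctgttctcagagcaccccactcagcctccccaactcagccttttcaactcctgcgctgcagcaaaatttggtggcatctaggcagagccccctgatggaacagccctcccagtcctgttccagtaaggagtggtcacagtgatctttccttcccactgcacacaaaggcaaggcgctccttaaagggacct
Kcnj2 chr11:111065914-111066213 (plus strand): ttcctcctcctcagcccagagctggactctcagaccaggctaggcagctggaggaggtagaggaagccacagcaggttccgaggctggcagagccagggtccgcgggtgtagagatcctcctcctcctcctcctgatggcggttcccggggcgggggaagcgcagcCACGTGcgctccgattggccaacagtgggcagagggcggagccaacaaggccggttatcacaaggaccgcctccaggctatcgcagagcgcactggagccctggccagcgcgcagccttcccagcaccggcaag
Kcna2 chr3:107101317-107101616 (plus strand): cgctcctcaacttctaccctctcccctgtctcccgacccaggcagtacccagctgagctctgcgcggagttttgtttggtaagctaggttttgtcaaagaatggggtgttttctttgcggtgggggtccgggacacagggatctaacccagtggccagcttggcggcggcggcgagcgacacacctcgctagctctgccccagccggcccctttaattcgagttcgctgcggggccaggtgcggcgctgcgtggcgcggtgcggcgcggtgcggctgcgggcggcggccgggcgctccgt
Kcnc4 chr3:107458849-107459148 (minus strand): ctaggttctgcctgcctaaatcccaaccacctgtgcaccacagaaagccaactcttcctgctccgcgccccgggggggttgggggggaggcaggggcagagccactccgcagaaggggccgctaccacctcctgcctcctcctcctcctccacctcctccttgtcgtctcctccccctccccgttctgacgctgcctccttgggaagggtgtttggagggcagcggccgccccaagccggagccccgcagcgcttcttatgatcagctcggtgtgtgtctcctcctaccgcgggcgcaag
Which of the starts of Kcnab1 these neurons use cannot be read from counts per gene. The genes themselves span chr3:64949212-65378225, chr11:111066164-111076825, chr3:107090883-107115005 and chr3:107438298-107460287. Kcna10 lies between Kcna2 and Kcnc4, 68.1 kb from the former and 243 kb from the latter.

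A list of 23 genes that act with potassium channels, among them the HCN channels, Kv anchoring proteins and BK gamma subunits, was followed in the same fit. Of 22 tested, 4 were lower at ZT8 than at ZT0 (9.02% of all genes) and none was higher by edgeR (8.95%). At an unadjusted p under 0.05, 10 were lower (16.2% of all genes) and 0 higher (2393 of 15572 genes). For ZT16 against ZT8, 3 were higher (9.11% of all genes). Hcn4, a pacemaker channel gene, changed by -0.88 (SE 0.27, FDR 0.0306) and 0.95 (SE 0.27, FDR 0.022), and Dlg2, which encodes the anchoring protein PSD-93, by -0.44 (SE 0.14, FDR 0.0363) and 0.48 (SE 0.14, FDR 0.0241). Lgi1, a secreted partner of Kv1 complexes, was lower at ZT8, log2 -0.61 (SE 0.19, FDR 0.0338). Against the input, 2 genes of the list were enriched (13.8% of all genes) and 4 (Hcn2, Lrrc55, Abcc9 and Lgi1) depleted (23% of all genes).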

How the data were processed

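Libraries were made from 100 ng RNA and sequenced as paired ends by the authors, who aligned reads to mm10 with STAR 2.7.5 and counted with RSEM. Deposited by the authors were expected counts for each gene without normalization, of which 1.9 to 3.68% per library were not whole, and were rounded here. The strand setting of RSEM is not given in the sources used here. Replicates are separate animals.

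In R 4.3.3, genes passing filterByExpr (15572 over the 18 IPs, 17901 over the 19 libraries) were scaled by TMM and tested with edgeR 4.0.16 (quasi-likelihood, Benjamini-Hochberg over all genes at 0.05): a 24-h cosinor, any difference among time points, and single pairs in the 6-group fit. Fold changes of named genes come from the latter. JTK_Cycle used log2 CPM (prior count 2), periods of 20, 24 and 28 h and 18 templates, with an exact null. CPM levels are on the TMM scale of the 19 libraries. Exon lengths and transcripts are GENCODE M21. Input intervals are exact 95% Poisson and cover counting error only; 3 counts stand for an input of 0. Among the alternatives, limma 3.58.1 removed the block or covariate before JTK_Cycle, and DESeq2 1.42.0 gave size factors and a second count test. Scripts were tested on simulated data. The common coefficient of variation was 19.2%.

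The members and lists were chosen with earlier results of these data known. Named with values were members called over time (the 20 with the lowest p for ZT16 against ZT8), the members with the 10 highest and the 10 lowest IP-to-input ratios (input count of 100 or more), the 12 highest levels and the 5 lowest JTK_Cycle p; other members were named after their values were seen. Kcne1l was counted as a member. Some genes that the rule would name are not reported here, though counts over all members include them.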

Additional observations from a re-analysis of the deposited data

How the results depend on the processing

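Fits with the leading principal component as covariate, or with GC content and length corrected, were alternatives chosen after seeing the data. Scaling by DESeq2 size factors or library totals kept every count of potassium channel genes within 1.5 times, though library totals shifted the median log2 ratio to the input over all genes by -0.33. JTK_Cycle gave 13 members when adjusted within the gene alone, 3 with the replicate block and 1 with the first principal component. Cosinor members became 10 with a filter of 1 count, 12 with DESeq2, 9 with the GC and length correction and 0 with the principal component; time-point members became 16, 13 and 0 with DESeq2, the correction and the component. For ZT8 against ZT0 and ZT16 against ZT8 the principal component left 0 and 0; with it Kcnab2 turned to 0.0297 and -0.0049, Kcnc2 to -0.0564 (ZT8 against ZT0), and Kcnip4 and Kcnmb4 to -0.0799 and -0.0132 (ZT16 against ZT8), on the log2 scale. ZT20 against ZT8 gave 2 members with a filter of 10 counts, 7 with 1 count, 8 with DESeq2 and 2 with the GC and length correction. A 1.5-fold rule gave 17 enriched members. Apart from DESeq2 for ZT20 against ZT8 (10.1% of all genes), the share of all genes called under these settings is not given here. The counts of members cannot be set against it, and the cause of these changes was not tested.

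Leaving out all libraries of 1 replicate number gave 0 to 9 cosinor, 0 to 6 time-point, 0 to 14 ZT8 against ZT0, 0 to 14 ZT16 against ZT8 and 0 to 4 ZT20 against ZT8 members, with 0 JTK_Cycle members throughout, 10 enriched and 26 to 28 depleted. Leaving out single libraries gave 0 to 12, 0 to 14, 3 to 23, 1 to 23 and 0 to 15 in the same order and 0 to 7 by JTK_Cycle. The JTK_Cycle count of 7 came without ZT16 replicate 3, and ZT20 against ZT8 reached 15, 5 and 4 in the absence of ZT8 replicate 1, ZT16 replicate 3 and ZT20 replicate 3. The time-point count was 14 without ZT8 replicate 1, 13 without ZT16 replicate 3, 5 without ZT16 replicate 2, 3 without ZT0 replicate 1 or 3, ZT4 replicate 2 or ZT16 replicate 1, 1 without ZT8 replicate 2 and 0 without ZT8 replicate 3. The cosinor count was 12 without ZT20 replicate 3, 9 without ZT16 replicate 3, 3 without ZT0 replicate 3 or ZT12 replicate 2, and 0 without ZT0 replicate 2, ZT4 replicate 2 or 3, ZT8 replicate 2 or 3, ZT12 replicate 1, ZT16 replicate 1 or 2, or ZT20 replicate 1. With 1 animal fewer at a time point the shared spread stands for the missing one. The share of all genes called in these fits is not given here either.

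Replicate numbers recur across time points, but deviations of same-numbered libraries correlated between -0.151 and 0.176 (4 of 45 pairs above 0.1), so the numbers were not taken to pair animals. With the replicate block, 5 cosinor, 8 time-point, 17, 17 and 0 members were called, Kcnmb4 (ZT8 against ZT0, log2 -0.45) and Kcnj10 (ZT16 against ZT8, 0.43) losing their calls. The share of all genes called with the block is not given here. Depth limits the lowest members, 23 of which were not tested.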

Other observations

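Of the 4 Kcn rows that are not channel genes, Kcnq1ot1, the long RNA that overlaps Kcnq1, had 3.71 ± 1.53 CPM in the IPs (SD, n = 18) against 11.3 CPM in the input and lay below it in all 18 IPs. Kcnmb4os2 had 1.49 ± 0.772 CPM, 4.02-fold above an input of 7 counts, in all 18 IPs. Kcnd3os had 0.162 ± 0.27 CPM, and Kcnmb4os1 had no count in the input. Kcnq1ot1 and Kcnmb4os2 passed the filter over time, and neither was called by edgeR in ZT8 against ZT0 (FDR 0.207 and 0.5) or in ZT16 against ZT8 (FDR 0.261 and 0.0961).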
